A study of Mus musculus with 20 samples.

Results

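The heterozygous *Inv1* chromatin map was set beside those of homozygous *Inv1* and of the wild-type, to see where an allele pair with 1 inverted and 1 normal chromosome lies between the other genotypes. The samples were taken by their genotype labels and make up 11 of the 20 in the series: 3 heterozygous *Inv1*, 4 homozygous *Inv1* and 4 wild-type. All were forelimb and hindlimb buds of E11.5 mouse embryos that were fixed, digested with DpnII, ligated and enriched with probes for the *Lbx1*/*Fgf8* locus (capture Hi-C, cHi-C). In cHi-C, read pairs count how often a pair of DNA segments was joined in fixed nuclei, here in bins of 5 kb. The 3 heterozygous samples were biological replicates, and the homozygous and wild-type groups each held 3 biological replicates and 1 technical replicate. The authors merged the replicates, so there was 1 map per genotype and no spread between limb buds could be measured. The *Inv1* allele was made with CRISPR/Cas9 in G4 embryonic stem cells, a line from a hybrid of C57Bl6 and another inbred strain, whereas the wild-type is labelled c57bl6.J, so genotype and background cannot be told apart. The mutant mice came from the edited cells by diploid or tetraploid aggregation and from lines bred from founders. The sources used here do not say which route gave these embryos, and an embryo from diploid aggregation can hold cells of its host.

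Topologically associating domains (TADs) are stretches of a chromosome whose segments contact each other more than their surroundings, and they end at boundaries that often bind CTCF. An enhancer usually acts on promoters of its own TAD, and an inversion across a boundary can exchange the enhancers of neighbouring TADs. *Fgf8* encodes a growth factor of the apical ectodermal ridge (AER), the signalling centre at the rim of the limb bud, and its AER enhancers lie mainly in introns of *Fbxw4*, which encodes an F-box protein. *Lbx1*, in the TAD on the centromeric side, encodes a homeobox transcription factor that muscle precursors need to migrate into the limb. *Btrc* encodes the part of a ubiquitin ligase that recognises its substrates, beta-catenin among them.

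The inverted interval is chr19:45611050-45734101 of mm9, 123 kb long. Its centromeric end lies between genes, 3219 bases beyond the end of *Btrc* and 15715 bases before *Poll*. Its telomeric end lies in intron 1 of *Fbxw4*, 701 bases inside the annotated start of that gene, so 99.1% of the gene body is turned round and its first exon is not. The mm9 sequence is shown for 30 bases on each side of both predicted Cas9 cuts, because they set which bins lie inside the inverted interval and which lie outside. Capitals mark the bases that lie inside the inversion, and the lower-case bases lie outside.
Centromeric breakpoint, chr19:45611021-45611080, plus strand: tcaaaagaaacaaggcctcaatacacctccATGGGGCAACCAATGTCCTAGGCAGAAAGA
Telomeric breakpoint, chr19:45734072-45734131, plus strand: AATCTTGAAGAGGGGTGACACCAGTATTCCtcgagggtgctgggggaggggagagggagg
The next pair of sequences is what the inverted chromosome would carry if the cut ends were joined with no base lost or gained, which was not examined here. At the centromeric junction the outer bases of *Btrc*'s side meet the *Fbxw4* intron in reverse, and at the telomeric junction the bases beside the TAD boundary meet the start of *Fbxw4*.
Centromeric junction, predicted: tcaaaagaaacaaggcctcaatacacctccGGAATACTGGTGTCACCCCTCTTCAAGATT
Telomeric junction, predicted: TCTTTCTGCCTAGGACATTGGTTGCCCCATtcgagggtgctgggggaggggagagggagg

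The maps cover chr19:44440001-46400000 in 392 bins, of which 389 hold values. They held 7804215 read pairs in heterozygous *Inv1*, 11615891 in homozygous *Inv1* and 7867931 in the wild-type. The median bin pair with a value had 26, 40 and 21 read pairs in these maps, in the same order. The maps differed in how far apart the joined ends lay, and the heterozygote was not always between the others in this. Of all read pairs, 10.99% fell within a bin in heterozygous *Inv1*, 12.9% in homozygous *Inv1* and 20.1% in the wild-type. Of those between bins, 35.7%, 34.8% and 32.8% spanned 100 to 500 kb. For this reason the maps were scaled jointly at each distance, from bin pairs outside the inversion, before they were compared. Contact signal below is the scaled KR (Knight-Ruiz balanced) signal per bin pair. The 1:1 mixture is the mean of the homozygous and wild-type signal. The inverted share is the heterozygous minus the wild-type signal, divided by the homozygous minus the wild-type signal. It is 0 at the wild-type level, 1 at the homozygous level and 0.5 in a 1:1 mixture, and it is given only where the homozygous and wild-type signals differed by at least 10%. Ranges in parentheses are 95% counting intervals. They come from the read pairs alone, and PCR copies and differences between limb buds are not in them. The share, both ratios and the mixture all use the same wild-type map.

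Contact across the breakpoints, between 1 bin inside the inversion and 1 outside, was summed over nearer and over farther bin pairs. Both sums lay between the other genotypes in the heterozygote, and close to their middle after balancing and scaling by distance. Bin pairs that the inversion brings at least 25 kb nearer had a mean signal of 8.25 in heterozygous *Inv1*, 9.62 in homozygous *Inv1* and 7.00 in the wild-type, over 3276 bin pairs. The ratio to the wild-type was 1.18 (1.17 to 1.19) in heterozygous and 1.37 (1.37 to 1.38) in homozygous *Inv1*, and the inverted share was 0.475 (0.457 to 0.493). Bin pairs that move at least 25 kb farther apart had a mean signal of 8.64 in heterozygous *Inv1*, 7.25 in homozygous *Inv1* and 10.1 in the wild-type. Their ratio to the wild-type was 0.853 (0.848 to 0.859) in heterozygous and 0.716 (0.711 to 0.720) in homozygous *Inv1*, with an inverted share of 0.516 (0.499 to 0.533). The near equality of both shares rests on the scaling by distance and the balancing. With equal totals only, the share was 0.686 (0.672 to 0.700) for nearer and 0.0588 (0.0256 to 0.0919) for farther bin pairs, and without balancing 0.585 (0.569 to 0.601) and 0.341 (0.323 to 0.359). Equal totals here and below are over contact outside the inversion, with contact within a bin included, in which the maps differed. Against the 1:1 mixture, the heterozygous signal was 0.992 (0.986 to 0.998) for nearer and 0.995 (0.989 to 1.00) for farther bin pairs. These ratios moved too: with equal totals only they were 1.08 and 1.09, and without balancing 1.03 and 1.05. With equal totals only, bin pairs outside the inversion were also at 1.06 times the mixture, so that move was not limited to contact across the breakpoints.

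**Figure D1:**
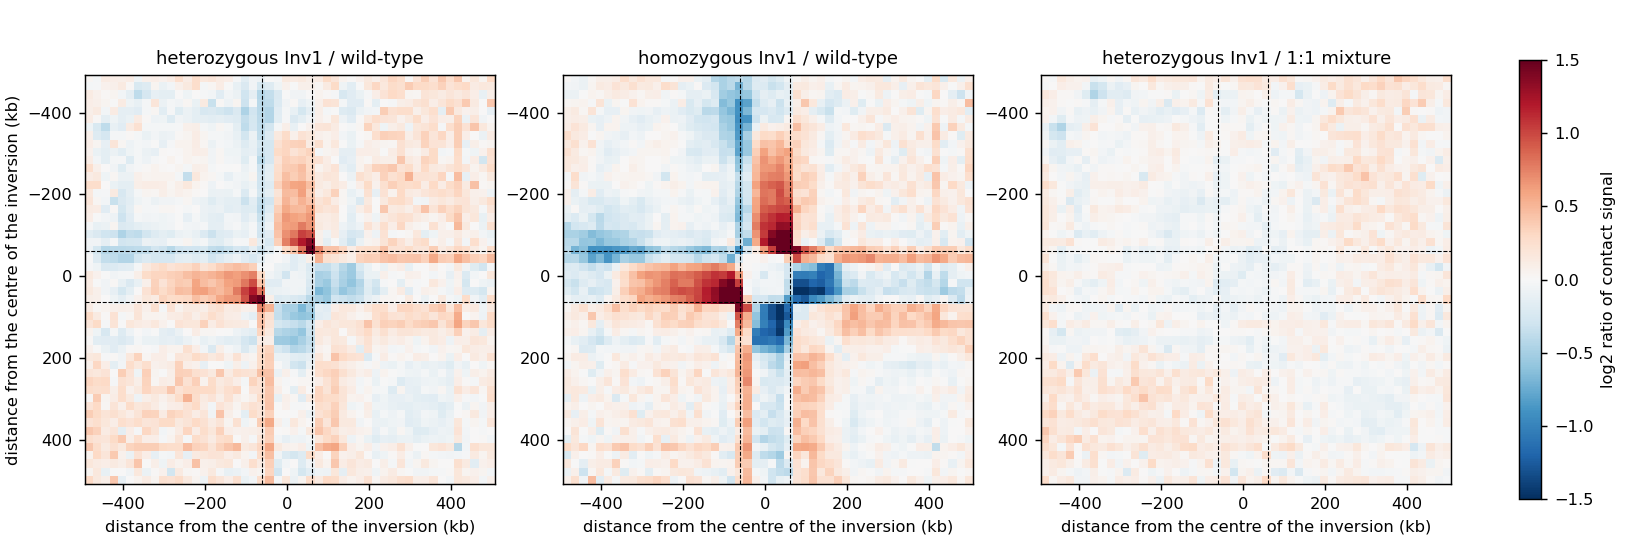
Log2 ratio of contact signal in blocks of 20 kb for heterozygous *Inv1* over wild-type, homozygous *Inv1* over wild-type and heterozygous *Inv1* over the 1:1 mixture; both axes give the distance from the centre of the inversion in kb and the dashed lines mark the breakpoints. The gains (red) and losses (blue) that flank the inversion are paler in the heterozygote, and they are nearly absent in the ratio to the mixture.

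The change grew with the shift in distance in both mutants, and more in the homozygote. Where the inversion shortens the distance by 100 to 125 kb, contact was 1.51 (1.48 to 1.54) times the wild-type in heterozygous and 2.01 (1.97 to 2.05) times in homozygous *Inv1*. Where it shortens it by 25 to 50 kb, the ratios were 1.04 (1.03 to 1.06) and 1.12 (1.10 to 1.13). Where it lengthens the distance by 100 to 125 kb, they were 0.744 (0.733 to 0.755) and 0.529 (0.521 to 0.538). The inverted share was 0.504 (0.484 to 0.524) in the first of these classes, 0.376 (0.280 to 0.472) in the second and 0.544 (0.523 to 0.564) in the last. Over the 8 classes that change by 25 kb or more it lay between 0.376 and 0.544.

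**Figure D2:**
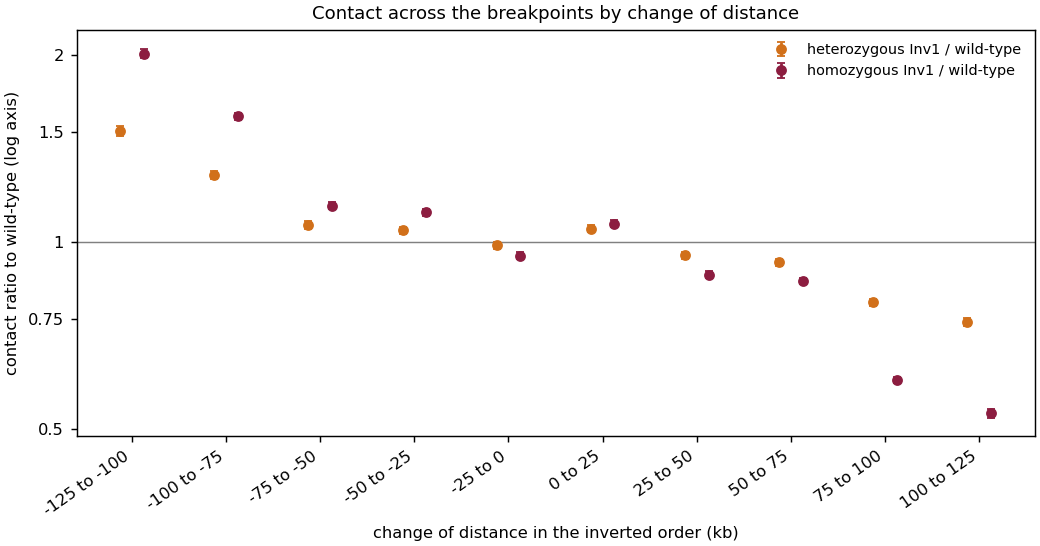
Contact ratio to wild-type (log axis, with 95% counting intervals) of bin pairs across the breakpoints, by the change of distance in the inverted order in kb, for heterozygous and homozygous *Inv1*. In each class that changes by more than 25 kb the heterozygous point lies between the homozygous point and the wild-type line at 1.

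The sides of the inversion differed more than the sums. On the centromeric side, which holds *Btrc* and *Lbx1*, the inverted share was 0.463 (0.445 to 0.480) for nearer and 0.669 (0.629 to 0.709) for farther bin pairs. On the telomeric side, which holds *Fgf8*, it was 0.522 (0.465 to 0.579) for nearer and 0.445 (0.429 to 0.462) for farther bin pairs. The telomeric shares moved to 0.887 (0.852 to 0.921) and 0.223 (0.201 to 0.245) with equal totals only, and the nearer one to 1.02 (0.980 to 1.07), the homozygous level, without balancing. Without balancing, the value for farther pairs on the centromeric side was -0.177 (-0.258 to -0.0956), with the heterozygote above the wild-type. Leaving out 25 kb around each breakpoint gave 0.376 (0.295 to 0.456) for the same pairs. The ratio to the mixture varied with the distance of the partner, in no steady order. With partners on the centromeric side, the heterozygous signal of all bins inside was 0.988 (0.980 to 0.996) of the mixture for partners within 100 kb, 1.00 (0.994 to 1.02) at 200 to 300 kb and 0.923 (0.912 to 0.935) at 500 to 1300 kb. With telomeric partners it was 0.990 (0.982 to 0.998) within 100 kb, 1.08 (1.06 to 1.10) at 200 to 300 kb and 1.02 (0.997 to 1.04) at 500 to 1300 kb. At 200 to 300 kb the inverted share was 0.833 (0.719 to 0.946) for nearer and -0.00864 (-0.200 to 0.182) for farther bin pairs. Regions that do not move are given for the same partners. The *Lbx1* TAD had 1.08 (1.07 to 1.08) times the mixture signal with the telomeric side at 200 to 500 kb, where the inverted interval had 1.06 (1.05 to 1.08). The *Fgf8* side, the 125 kb beyond the telomeric breakpoint, had 0.902 (0.892 to 0.913) times the mixture signal with the centromeric side at 500 to 1300 kb.

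Inside the inversion, where distances do not change, the heterozygote lay below both other genotypes. The mean signal of the 253 bin pairs was 84.5 in heterozygous *Inv1*, 87.0 in homozygous *Inv1* and 90.1 in the wild-type. The ratio to the wild-type was 0.938 (0.931 to 0.945) in heterozygous and 0.966 (0.960 to 0.973) in homozygous *Inv1*, and the ratio of the heterozygote to the mixture was 0.954 (0.948 to 0.960). This direction depends on the balancing, since the same ratio from read pairs without balancing was 1.02 (1.01 to 1.02). Between the *Fbxw4* interval and the boundary part the heterozygous signal was 0.920 (0.909 to 0.931) of the mixture, and within the *Fbxw4* interval 0.961 (0.953 to 0.968). The *Fbxw4* interval is the 75 kb of its gene body inside the inversion (chr19:45655001-45730000), and the boundary part is the 40 kb between the centromeric breakpoint and this interval (chr19:45615001-45655000). The read ends per bin inside, relative to bins outside, were 1.14 in heterozygous *Inv1*, 1.11 in homozygous *Inv1* and 1.07 in the wild-type. Balancing removes this difference, and its part in the result was not tested.

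Outside the inversion the sum over all bin pairs is 1 for every ratio by construction, because the scaling was fitted there. The parts of the outside class were not fixed. Within the centromeric side the heterozygous signal was 0.997 (0.996 to 0.998) of the mixture, within the telomeric side 0.998 (0.996 to 1.00), and between the sides 1.02 (1.02 to 1.03). Between the sides the ratio to the wild-type was 1.04 (1.03 to 1.04) in heterozygous and 1.03 (1.02 to 1.03) in homozygous *Inv1*, so there too the heterozygote was not between the others.

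At the junctions, where the inversion makes neighbours of segments that lay apart, both mutants gained contact, the heterozygote less. The windows of 25 kb by 25 kb on either side of the new joins held 16421 read pairs in heterozygous *Inv1*, 37032 in homozygous *Inv1* and 6486 in the wild-type. The signal at the centromeric junction, between the end of *Btrc* and the *Fbxw4* intron, was 44.1 in heterozygous *Inv1*, 82.0 in homozygous *Inv1* and 15.4 in the wild-type. This was 2.86 (2.73 to 2.99) times the wild-type in the heterozygote and 5.32 (5.09 to 5.55) times in the homozygote. The signal at the telomeric junction was 38.6 in heterozygous *Inv1*, 58.8 in homozygous *Inv1* and 22.9 in the wild-type, with ratios of 1.69 (1.62 to 1.76) and 2.57 (2.47 to 2.67). The inverted share was 0.431 (0.413 to 0.448) at the centromeric and 0.438 (0.408 to 0.469) at the telomeric junction, and 0.433 (0.418 to 0.449) for both together. With equal totals and no scaling by distance, the joint value was 0.521 (0.505 to 0.537).

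The windows across the breakpoints in the normal order lost contact in both mutants. Their signal at the centromeric end was 39.4 in heterozygous *Inv1*, 22.3 in homozygous *Inv1* and 55.8 in the wild-type, and at the telomeric end 48.2, 16.4 and 78.6. The ratio of both windows to the wild-type was 0.652 (0.638 to 0.666) in heterozygous and 0.288 (0.281 to 0.295) in homozygous *Inv1*, an inverted share of 0.489 (0.471 to 0.507). With equal totals only it was 0.451 (0.431 to 0.470), so the order of the shares at the normal and the new joins turned round with the scaling.

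The *Lbx1* TAD gained contact with the *Fbxw4* interval in the heterozygote, near the middle of the homozygous change after scaling by distance and balancing. Introns of *Fbxw4* hold most of the AER enhancers, but single enhancers were not located here. The TAD was taken from its centromeric boundary to the breakpoint bin (chr19:45295001-45610000). Its signal with the *Fbxw4* interval was 17.4 in heterozygous *Inv1*, 23.3 in homozygous *Inv1* and 11.8 in the wild-type, from 130864, 245519 and 75600 read pairs. The ratio to the wild-type was 1.47 (1.45 to 1.48) in heterozygous and 1.97 (1.95 to 1.99) in homozygous *Inv1*, and the inverted share was 0.483 (0.472 to 0.493). With equal totals only this share was 0.618 (0.608 to 0.629). The gain faded along the TAD. For nearer bin pairs with partners within 100 kb of the breakpoint, the ratio was 1.97 (1.93 to 2.01) in heterozygous and 3.15 (3.10 to 3.21) in homozygous *Inv1*. At 100 to 200 kb it was 1.41 (1.38 to 1.45) and 1.84 (1.80 to 1.88), and at 200 to 300 kb 1.20 (1.17 to 1.23) and 1.39 (1.36 to 1.42).

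The start of *Btrc*, at chr19:45438224-45607831 on the plus strand, shared in this gain, whereas the ratio at that of *Lbx1*, at chr19:45307178-45310301 on the minus strand, was close to 1. In 3 bins around each start, contact of *Btrc* with the *Fbxw4* interval was 12.1 in heterozygous *Inv1*, 15.3 in homozygous *Inv1* and 9.01 in the wild-type. This was 1.35 (1.27 to 1.43) and 1.70 (1.61 to 1.80) times the wild-type, with an inverted share of 0.495 (0.414 to 0.576). The *Btrc* share was 0.660 (0.585 to 0.736) with equal totals only and 0.457 (0.391 to 0.522) without balancing. For *Lbx1* the signal was 11.89 in heterozygous *Inv1*, 12.80 in homozygous *Inv1* and 11.49 in the wild-type. The heterozygous ratio of 1.04 (0.987 to 1.09) had an interval that includes 1, whereas the homozygous ratio was 1.11 (1.07 to 1.17). The *Lbx1* share of 0.307 (-0.0536 to 0.667) covers both the wild-type level and the mixture, so the depth does not place it. Contact of *Lbx1* with the boundary part was lower, at 22.8 in heterozygous *Inv1*, 18.6 in homozygous *Inv1* and 25.8 in the wild-type, a share of 0.423 (0.306 to 0.540) that turned to -0.991 without balancing and was -0.0505 (-0.288 to 0.187) with equal totals only. Contact of the *Btrc* start with the boundary part was 0.985 (0.925 to 1.05) and 0.966 (0.910 to 1.03) times the wild-type in heterozygous and homozygous *Inv1*, and neither interval excludes 1.

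*Fgf8* lost contact with the *Fbxw4* interval in the heterozygote, to a level between the other genotypes. The gene lies at chr19:45811288-45817405 on the minus strand. Its signal with the *Fbxw4* interval was 24.7 in heterozygous *Inv1*, 14.4 in homozygous *Inv1* and 37.1 in the wild-type, from 8441, 6546 and 8528 read pairs. The ratio to the wild-type was 0.665 (0.645 to 0.687) in heterozygous and 0.389 (0.376 to 0.402) in homozygous *Inv1*. The inverted share was 0.547 (0.517 to 0.578), and it was 0.300 (0.255 to 0.345) without balancing. The 125 kb from the inversion to the telomeric boundary (chr19:45735001-45860000), called the *Fgf8* side here, gave 25.6 in heterozygous *Inv1*, 14.5 in homozygous *Inv1* and 36.5 in the wild-type, a share of 0.497 (0.485 to 0.508). Contact between *Fgf8* and the *Lbx1* TAD, both outside the inversion, was 0.927 (0.906 to 0.949) of the wild-type in heterozygous and 0.937 (0.917 to 0.958) in homozygous *Inv1*. Contact of that TAD with the whole *Fgf8* side went the other way, at 1.01 (1.01 to 1.02) and 1.07 (1.06 to 1.08) times the wild-type. The start of *Btrc* with *Fgf8* had 1.13 (0.971 to 1.31) and 1.21 (1.06 to 1.39) times. The start of *Fgf8* had 39.9, 38.0 and 42.5 with the boundary part in heterozygous *Inv1*, homozygous *Inv1* and the wild-type. Contact between 3 bins at the start of *Lbx1* and 3 at that of *Fgf8* was 1.02 (0.957 to 1.09) and 1.04 (0.983 to 1.11) times the wild-type, with 1 inside both intervals.

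**Figure D3:**
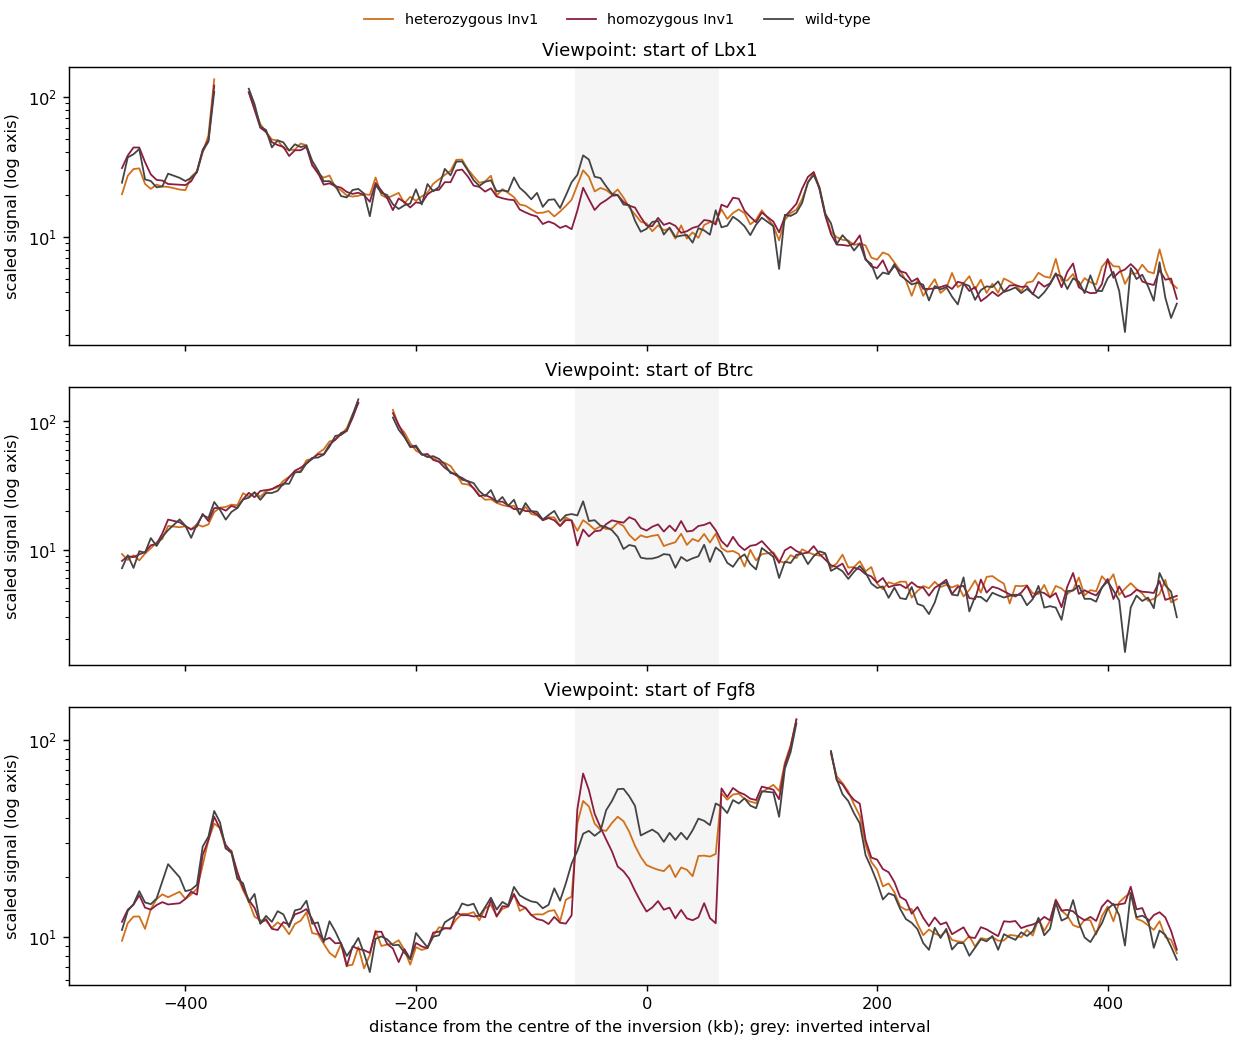
Scaled contact signal (log axis) of 3 bins at the starts of *Lbx1*, *Btrc* and *Fgf8* with the bins around the inversion, against the distance from its centre in kb, in heterozygous *Inv1*, homozygous *Inv1* and wild-type; bins next to each start are left out. From *Fgf8*, the heterozygous line runs between the others across most of the grey inverted interval, from *Btrc* it does so above the wild-type, and from *Lbx1* the lines lie close together over the part that holds *Fbxw4*.

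The boundary part of the inversion moved the opposite way. It holds *Poll*, which encodes a DNA polymerase of repair, and *Dpcd*, and it lies beside *Btrc* in the normal order and beside the start of *Fbxw4* in the inverted order. Its signal with the *Lbx1* TAD was 21.3 in heterozygous *Inv1*, 19.4 in homozygous *Inv1* and 23.4 in the wild-type, a share of 0.533 (0.489 to 0.578). Without balancing this share was -0.243 (-0.335 to -0.151), and with equal totals only it was -0.417 (-0.544 to -0.290), so the place of the heterozygote relative to the wild-type depends on both steps. Its signal with the *Fgf8* side was 29.5 in heterozygous *Inv1*, 33.0 in homozygous *Inv1* and 27.6 in the wild-type, a share of 0.344 (0.278 to 0.409). This share was 0.554 (0.513 to 0.595) without 25 kb around each breakpoint, 0.883 (0.832 to 0.934) with equal totals only and 0.854 (0.796 to 0.911) without balancing. The starts of *Poll* and *Dpcd* share a bin, so they had the same values. Their contact with the *Lbx1* TAD was 0.986 (0.971 to 1.00) and 0.980 (0.966 to 0.995) of the wild-type in heterozygous and homozygous *Inv1*, and that with the *Fgf8* side 0.985 (0.963 to 1.01) and 1.01 (0.994 to 1.03). This bin lies where the profiles of the genotypes cross.

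Along the inversion, after scaling by distance and balancing, the heterozygous profile followed the middle of the other profiles bin by bin. Of the 23 bins inside, 18 had more contact with the *Lbx1* TAD in the heterozygote than in the wild-type, and 4 had less, with intervals that exclude 1. With the *Fgf8* side, 4 had more and 18 had less. The ratio of the heterozygote to the wild-type with the *Lbx1* TAD went up to 1.85, in the bin next to the telomeric breakpoint, and the homozygous ratio in the same bin was 2.83. Its lowest value was 0.681, in the bin next to the centromeric breakpoint, where the homozygous ratio was 0.447. The heterozygote lay between homozygote and wild-type in 22 of 23 bins for each partner. Where the homozygote differed from the wild-type by at least 25%, it did so in 20 of 20 bins for the *Lbx1* TAD and in 21 of 21 for the *Fgf8* side. The median share over these bins was 0.496 (range 0.364 to 0.612) with the *Lbx1* TAD and 0.493 (range 0.419 to 0.589) with the *Fgf8* side. These bins were picked for a wide gap between homozygote and wild-type, which makes a value between them likelier. All bins inside share their partners and the wild-type map, so they are not independent values. Single bins were not read under other settings. For the whole *Fbxw4* interval with equal totals only, the share was 0.618 (0.608 to 0.629) with the *Lbx1* TAD. With the *Fgf8* side it was 0.345 (0.331 to 0.359). Without balancing these shares were 0.490 and 0.478.

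**Figure D4:**
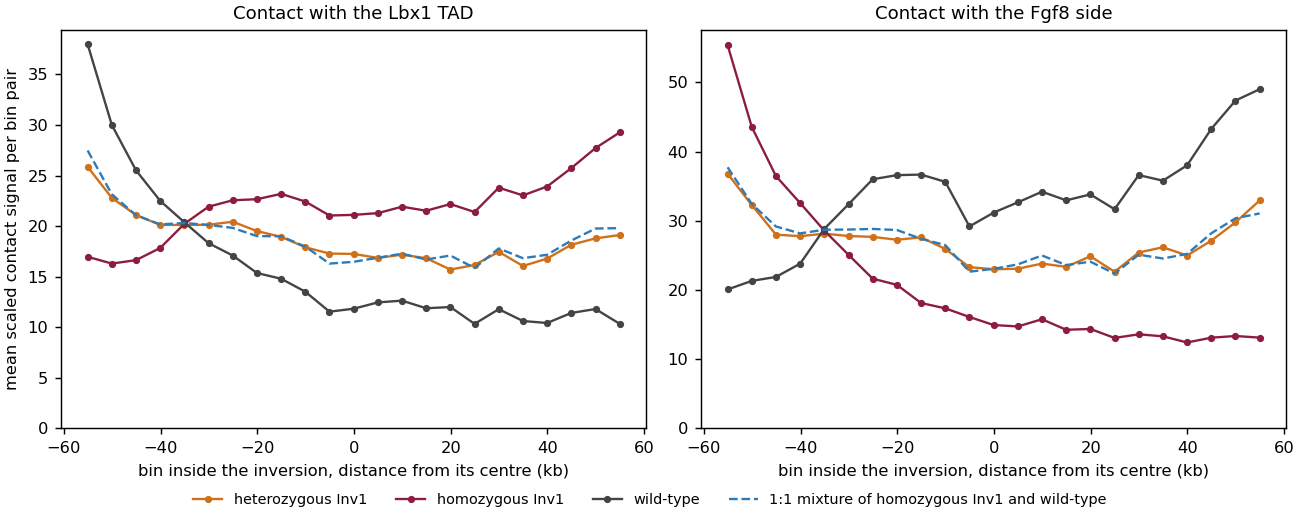
Mean scaled contact signal of each 5 kb bin inside the inversion with the *Lbx1* TAD and with the *Fgf8* side, against its distance from the centre of the inversion in kb, in heterozygous *Inv1*, homozygous *Inv1*, wild-type and the 1:1 mixture (dashed). After scaling by distance and balancing, the heterozygous line stays close to the mixture, and all lines cross near the starts of *Poll* and *Dpcd*.

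The TAD boundaries were taken as the wild-type minima of contact between the 100 kb on either side: a centromeric one at 45295000, a middle one at 45620000 and a telomeric one at 45860000. The middle one lies 8.95 kb inside the inversion and moves with it. Contact of the middle boundary with the centromeric boundary was 36.7 in heterozygous *Inv1*, 25.3 in homozygous *Inv1* and 50.9 in the wild-type. This was 0.722 (0.690 to 0.756) and 0.498 (0.475 to 0.523) times the wild-type, with a share of 0.554 (0.497 to 0.612) that was 0.287 (0.222 to 0.352) without balancing and 0.398 (0.320 to 0.475) with equal totals only. Contact of the middle with the telomeric boundary was 17.2 in heterozygous *Inv1*, 21.6 in homozygous *Inv1* and 12.4 in the wild-type, or 1.38 (1.27 to 1.50) and 1.74 (1.61 to 1.88) times, with a share of 0.516 (0.399 to 0.632). That share was 0.637 (0.527 to 0.746) without balancing and 0.679 (0.568 to 0.791) with equal totals only. Contact of the centromeric with the telomeric boundary was 1.09 (1.01 to 1.18) times the wild-type in heterozygous and 1.00 (0.934 to 1.08) in homozygous *Inv1*.

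Contact across the middle boundary depended on the order in which the bins were read. In the normal order, the signal between the 100 kb on either side was 28.0 in heterozygous *Inv1*, 35.1 in homozygous *Inv1* and 21.7 in the wild-type, a share of 0.473 (0.455 to 0.490). In the inverted order it was 31.3 in heterozygous *Inv1*, 24.9 in homozygous *Inv1* and 39.0 in the wild-type, a share of 0.547 (0.528 to 0.565). The bin of the centromeric breakpoint is part of the sum in normal order, and that of the telomeric breakpoint is part of the sum in inverted order. The heterozygote thus had intermediate contact across the middle boundary in both orders. Across the centromeric boundary, which is not moved, the heterozygote had 0.934 (0.921 to 0.948) and the homozygote 1.03 (1.01 to 1.04) times the wild-type signal. Across the telomeric boundary these values were 1.12 (1.11 to 1.14) and 1.18 (1.17 to 1.20).

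**Figure D5:**
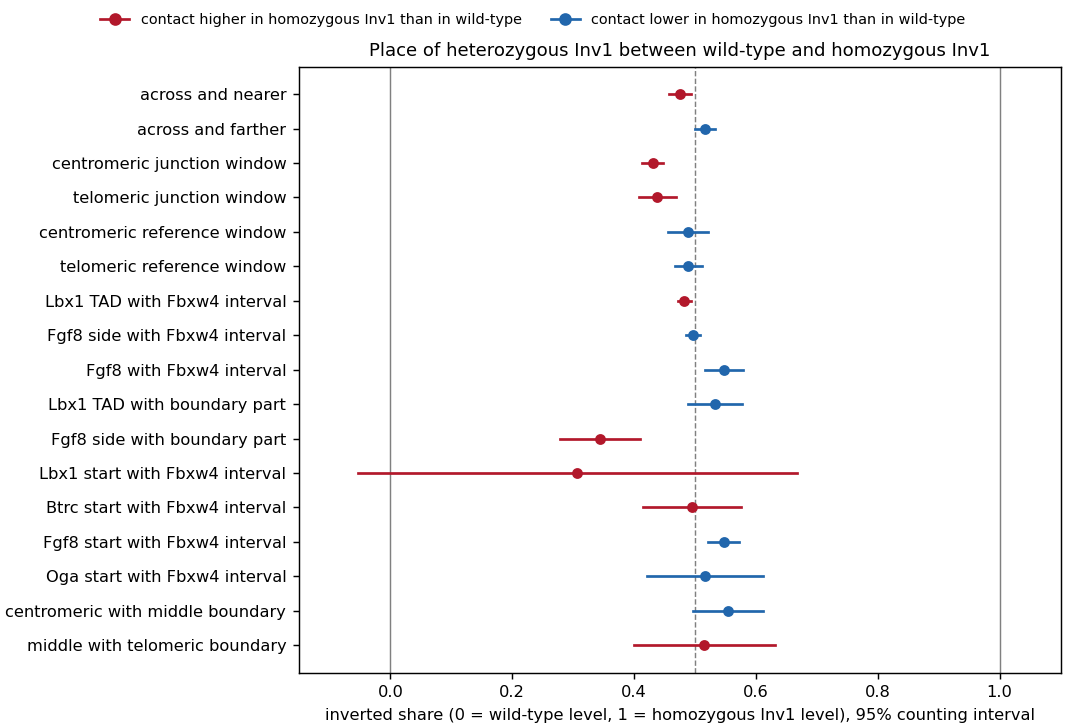
Inverted share of the heterozygote with its 95% counting interval for some of the classes of bin pairs, junction windows, regions, gene starts and boundary pairs described, after scaling by distance and balancing; the lines at 0, 0.5 and 1 mark the wild-type level, the 1:1 mixture and the homozygous level. The points lie between 0.307 (start of *Lbx1* with the *Fbxw4* interval) and 0.554 (centromeric with middle boundary), and both junction windows lie below 0.5. Shares outside this range are not plotted, such as those of *Twnk* (0.788), of farther bin pairs on the centromeric side (0.669) and of the *Fgf8* start with the boundary part (0.581). Nor are those by distance of the partner, among them -0.00864 (telomeric side, 200 to 300 kb, farther) and 1.60 (centromeric side, 500 to 1300 kb, farther).

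Among the flanking genes, the start of *Oga*, which encodes the enzyme that removes O-GlcNAc from proteins, had 11.6 in heterozygous *Inv1*, 9.15 in homozygous *Inv1* and 14.2 in the wild-type with the *Fbxw4* interval. Its ratios were 0.816 (0.778 to 0.856) and 0.644 (0.615 to 0.675), and its share was 0.516 (0.421 to 0.612). With equal totals only the share was 0.122 (-0.0228 to 0.266), which covers the wild-type level. The start of *Twnk*, which encodes the mitochondrial helicase, had 3.28, 3.12 and 3.88 in the same order, a share of 0.788 (0.478 to 1.10) that includes both the mixture and the homozygous level. For *Slf2*, 685 kb from the interval on average, the ratios were 0.996 (0.894 to 1.11) and 0.986 (0.893 to 1.09), and no difference was detectable at this depth. The start of *Fbxw4* itself lies in the bin of the telomeric breakpoint, which was left out.

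Over the whole map, 619 pairs of 50 kb blocks had at least 1000 read pairs in each of the 3 maps. A block pair was called where the higher of both maps exceeded the lower by 25% or more, since 1 map per genotype allows no test. Heterozygous *Inv1* passed this against the wild-type in 33 of them (5.33%) and homozygous *Inv1* in 41 (6.62%). Of the 104 block pairs in which a block has at least 5 of its 10 bins inside the inversion, 21 were called in the heterozygote (11 higher, 10 lower) and 28 in the homozygote (16 higher, 12 lower). Among the 28 called in the homozygote, the heterozygous signal lay between the other genotypes in 28, and the median share was 0.517 (range 0.333 to 0.981). These 28 were picked for a wide gap between homozygote and wild-type, which makes a value between them likelier. The rest of the 104 were not counted in this way. Nor were the block pairs outside the inversion, where the homozygote was higher in 8 and lower in 5. Against the 1:1 mixture, the heterozygote passed the 25% limit in 10 of the 619 block pairs (1.62%), all of them lower. Of these 10, 1 was among the 104 block pairs that touch the inversion and 9 were among the 515 outside it.

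The 5 lowest and the 5 highest ratios to the mixture all lay outside the inversion, as did 515 of the 619 block pairs. The lowest was 0.650 (0.625 to 0.675), between chr19:44790001-44840000 and chr19:45290001-45340000, the block of *Lbx1*. Its signal was 3.75 in heterozygous *Inv1*, 6.49 in homozygous *Inv1* and 5.05 in the wild-type, from 3755, 10206 and 3655 read pairs. The heterozygote was thus below the wild-type and the homozygote above it. The same block at 44790001 was part of 4 of the 5 lowest pairs, among them that with the block of *Fgf8* and *Oga* at 0.737 (0.697 to 0.780). The remaining 3 ratios lay between 0.718 and 0.734. The 5 highest ratios lay between 1.16 and 1.20 and joined the centromeric to the telomeric side, 2 of them through blocks of *Btrc*. In these 5 the heterozygote had 1.18 to 1.20 times the wild-type signal, and the homozygote 1.00 to 1.05 times.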

How the data were processed

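Before deposit, the authors trimmed the reads to 50 bases and used HiCUP, which calls Bowtie2 (2.4.2), to map them to mm9 and take out duplicates. They then pooled the alignments of each genotype, kept read pairs with a mapping quality of at least 30 and binned them at 5 kb. The deposited values used here are contact signal after KR balancing with Juicer tools 1.19.02, 1 map per genotype. All reads were mapped to the normal order, so balancing and binning also follow that order. The other 6 of the 9 deposited maps were not used: 3 hold other genotypes and 3 hold the authors' own differences between a mutant and the wild-type.

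Python 3.11.15 with numpy 2.4.6, scipy 1.17.1 and matplotlib 3.10.9 was used. Dividing the bin factors out of the deposited signal gave whole read pairs for 100% of values in each map (within 0.01), and pairs of filled bins not listed were taken as 0. The 3 maps were scaled to their mean at each distance, from bin pairs that do not touch the inverted interval, then to a total of 1000000. Bins holding a breakpoint were left out of the sums, except those of contact across the middle boundary. They were kept in the plotted ratio maps and in the profiles from gene starts. The diagonal was left out of all sums of contact, but it was part of the total used in scaling. Variances are sums of read pairs times the squared value of 1 read pair. The steps were also run on simulated maps with known shares. These maps all had the wild-type fall of contact with distance and no TADs. They therefore cannot show how the differences between the real maps act on the shares. Breakpoints are the exact matches of the guides in the mm9 genome, and genes are from GENCODE M1, where *Slf2*, *Twnk* and *Oga* are named *Fam178a*, *Peo1* and *Mgea5*.

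Named were the 6 genes of the locus that the study discusses, these 3 flanking genes, and the 5 highest and 5 lowest block pairs; boundaries are wild-type minima near *Lbx1*, between the ends of *Btrc* and *Fbxw4*, and near *Fgf8*. The members, lists and rules were chosen with earlier results of these data known, and the split by side, single windows, profiles and boundary pairs were added after the data had been seen. Alternatives changed the mixture, the scaling, the balancing, the distances, the bins at the breakpoints and the extent of the *Fbxw4* interval.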

Additional observations from a re-analysis of the deposited data

How the results depend on the processing

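No paired analysis was possible because each genotype has 1 map, made from all its replicates. For the same reason no replicate could be left out and no test was run. With equal totals only, the ratio of the heterozygote to the mixture was 0.977 inside, 1.08 for nearer, 1.09 for farther and 1.06 for outside bin pairs, and the inverted share was 0.686 for nearer and 0.0588 for farther bin pairs, 0.521 at the junctions, 0.618 for the *Lbx1* TAD and 0.376 for *Fgf8* with the *Fbxw4* interval, and -0.417 for the *Lbx1* TAD with the boundary part. Read pairs without balancing gave ratios of 1.02 inside, 1.03 nearer and 1.05 farther, and shares of 0.585 nearer, 0.341 farther, 0.453 at the junctions and 0.300 for *Fgf8*; they turned the sign for farther bin pairs on the centromeric side (-0.177), the *Lbx1* TAD with the boundary part (-0.243) and the *Lbx1* start with the boundary part (-0.991). Adding read pairs of both genotypes before balancing gave ratios of 0.986 nearer and 1.00 farther, and shares of 0.498 farther, 0.461 for the *Lbx1* TAD and 0.474 for *Fgf8*. With bin pairs at least 50 kb apart, the ratio inside was 0.936. Without 25 kb around each breakpoint, it was 0.944 inside and 1.00 for farther bin pairs, and the share of the *Lbx1* TAD was 0.509. With the 50 kb at the 3′ end of *Fbxw4* only, that share was 0.502. The cause of these shifts was not tested. Under 4 combinations the homozygote and the wild-type differed by less than 10% and no share was given, among them nearer and farther bin pairs without the breakpoint margins.

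The counting intervals are narrow because the maps are deep, and they say nothing of the spread between limb buds. The maps also differ in background and in the share of short read pairs, so these and the genotype cannot be told apart in small departures from the mixture.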

Other observations

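The block at 44790001 that gave most of the lowest ratios holds the start of *Pax2*, which encodes a paired-box transcription factor of kidney, eye and midbrain development, and its partners included the blocks of *Tlx1*, which encodes a homeobox transcription factor, and of *Lbx1*. These genes were chosen after the block values had been seen, and their contacts were then read in 3 by 3 bins at the starts. *Pax2* with *Lbx1*, 480 kb apart, had a signal of 5.23 in heterozygous *Inv1*, 10.2 in homozygous *Inv1* and 7.49 in the wild-type. This was 0.698 (0.607 to 0.802) and 1.36 (1.21 to 1.53) times the wild-type, on either side of it. *Pax2* with *Tlx1* had 9.62 in heterozygous *Inv1*, 15.8 in homozygous *Inv1* and 12.04 in the wild-type, and *Tlx1* with *Lbx1* had 25.9, 37.4 and 33.3.

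The starts of *Pax2*, *Tlx1*, *Lbx1* and *Fgf8* form 6 pairs. They lie in blocks named for low ratios, so these values partly repeat that choice. Pairs of other starts were not read for comparison. The ratio of the heterozygote to the mixture was 0.591 for *Pax2* with *Lbx1*, 0.675 for *Pax2* with *Fgf8* and 0.691 for *Pax2* with *Tlx1*. It was 0.733 for *Tlx1* with *Lbx1* and 0.857 for *Tlx1* with *Fgf8*. For *Lbx1* with *Fgf8* the ratio was 0.998 (0.951 to 1.05). The pairs of *Pax2*, *Tlx1* and *Lbx1* with *Fgf8* all lie on either side of the inversion. Without balancing, *Tlx1* with *Fgf8* had a ratio of 0.999 and *Pax2* with *Lbx1* one of 0.676 (0.611 to 0.749). All of these starts lie outside the inverted interval.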
